A study of Zea mays with 12 samples.

Results

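The difference between the stress response of the maize primary root tip at 24 h and at 48 h was measured across the transcriptome. For each feature it was taken as (WS48 minus WW48) minus (WS24 minus WW24) on the log2 scale, where WW denotes the well-watered and WS the water-stressed treatment. A positive value means that the ratio of WS to WW was higher at 48 h than at 24 h, and a negative value that it was lower. The contrast used all 12 libraries of the series and all 42976 features of the count table, of which 26746 had enough counts to be tested. Each feature with a called difference was then assigned to the treatment whose abundance moved with time.

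All seedlings were of the maize line FR697 and were kept at 29 °C in the dark in vermiculite moistened with 1 mM CaSO4. The well-watered medium had a water potential of −0.02 MPa and the water-stressed medium −1.6 MPa, and no water was added later. Root tips were taken 24 h or 48 h after transplanting, which gave the groups WW24, WS24, WW48 and WS48 with 3 libraries each. Each sample pooled 50 to 100 mg of tips. The study states that its replicates were independent experiments. The tips covered the elongation zone and were 12 mm long in WW and 7 mm long in WS, so treatment and the length of tissue sampled cannot be told apart. In such bulk samples, fewer cells of a type and less RNA per cell also cannot be told apart.

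The primary root of maize keeps elongating in its apical few millimetres at water potentials that stop the growth of shoots. Abscisic acid (ABA) accumulates in the tip, solutes are imported and retained, and cell walls stay extensible near the apex while cells farther back cease to elongate earlier than in well-watered roots. Transcripts of the stressed root can therefore change over the first days of stress, and transcripts of the unstressed root can change as well while the seedling ages in the dark.

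Counts assigned to features ranged from 40005384 to 54863708 per library. WS24 replicate 3 stood apart in alignment and in mitochondrial counts. Reads not aligned made up 23.1% of its counts, those naming no feature included, against 12.7 to 15.0% in the other 11 libraries. Its mitochondrial transcripts summed to a CPM (library-scaled abundance) of 299, against 66.6 to 114. None of the 33 organelle features tested had a called difference by edgeR's quasi-likelihood test, although 6 had an unadjusted p under 0.05 (DESeq2 called 0).

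The stress response differed between the times for 103 features, which was 0.385% of those tested. Calls were made by edgeR's quasi-likelihood test where the Benjamini-Hochberg adjusted p did not exceed 0.05 and the log2 value was at least 1 in size. Positive calls numbered 35 (0.131%) and negative calls 68 (0.254%), with medians of 1.80 and −1.64 on the log2 scale. The median over all features tested was −0.003. At an unadjusted p under 0.05 there were 3755 features (14.0%), and the median standard error (SE) of a difference was 0.21, which puts the 95% interval at 0.45 to either side.

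These counts depended on single libraries. Without WS48 replicate 1 the calls numbered 8 positive and 5 negative, and without WS48 replicate 2 they numbered 15 and 12. Leaving out WS24 replicate 1 gave 16 and 27, WS24 replicate 2 gave 18 and 26, WW24 replicate 2 gave 25 and 25, and WW24 replicate 3 gave 24 and 43. Higher numbers came without WW24 replicate 1 (56 and 159), WW48 replicate 3 (39 and 170) and WS48 replicate 3 (39 and 114). WW48 replicate 1 gave 45 and 55 when left out, and WW48 replicate 2 gave 26 and 57. Without WS24 replicate 3, the library that stood apart in alignment, there were 36 positive and 47 negative calls, and 59 of the 103 were among them. In all 12 such settings 13 calls were kept, and the other 90 were all lost without WS48 replicate 1.

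**Figure D1:**
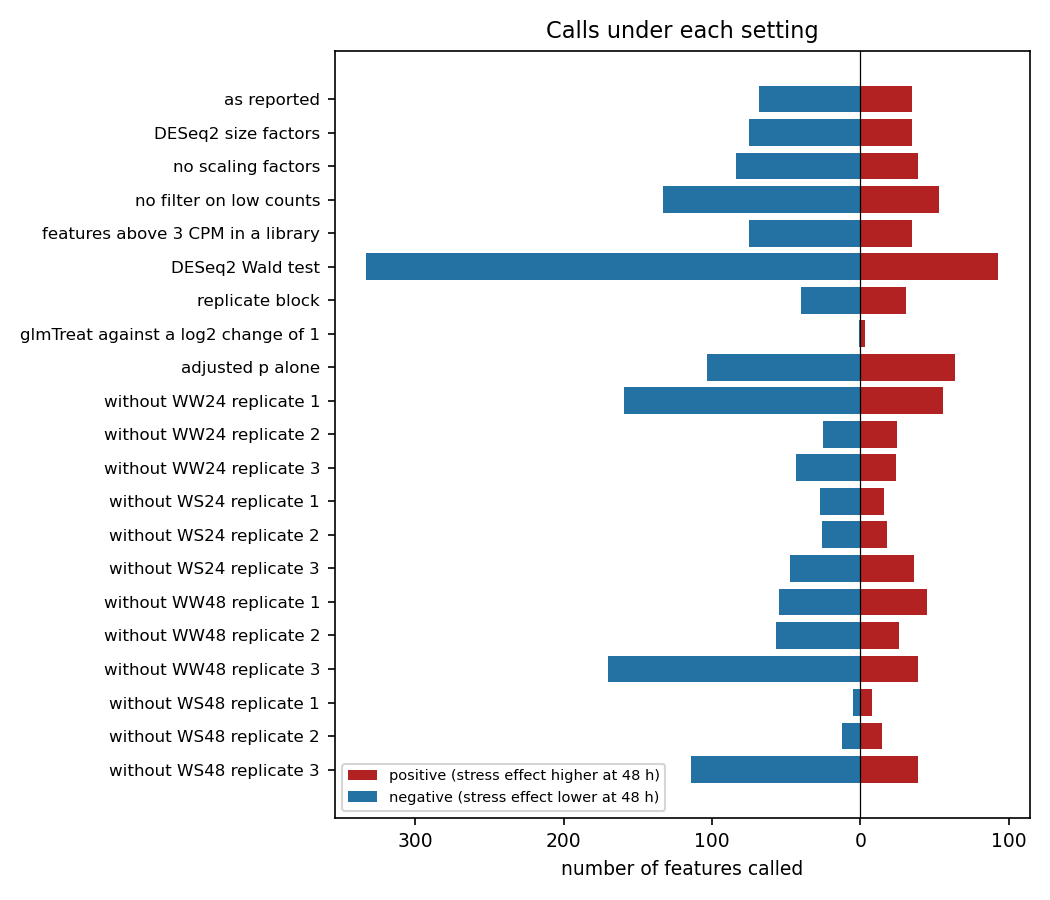
Number of features with a called difference of the stress response (horizontal axis, negative calls to the left and positive calls to the right of 0) in the analysis as reported, under 8 other settings and with each library left out. The counts run from 8 to 56 positive and from 5 to 170 negative calls when 1 library is left out.

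Most features that responded to stress had no called difference. Stress calls were made for 3988 features at 24 h (14.9%), of which 2480 were increases (9.27%) and 1508 decreases (5.64%). At 48 h there were 3766 (14.1%), with 1926 increases (7.2%) and 1840 decreases (6.88%), and 5142 features had a stress call at either time. Of these 5142, 91 (1.77%) also had a called difference, and the other 12 of the 103 had no stress call at either time. A stress call at 24 h alone was made for 1376 features, of which 32 had a called difference, and at 48 h alone for 1154, of which 22 did. Among the features with a call at 24 h alone, 1226 had fitted effects of the same sign at both times. A call at a single time therefore did not by itself show that the response differed between times.

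Classed by the stress calls at each time, the 103 features more often had an effect that was smaller at 48 h than an effect that was larger. For 32 features a stress increase was smaller at 48 h or no longer called, and for 20 a stress decrease was. Increases were larger at 48 h, or were called only then, for 10 features, and decreases for 23. The remaining calls were 6 features whose stress effect was called in opposite directions at the times and the 12 with no stress call. A feature called at a single time was classed as smaller or larger even where its fitted effect changed sign. Fitted effects of opposite sign were found in 16 of the positive and 31 of the negative calls.

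**Figure D2:**
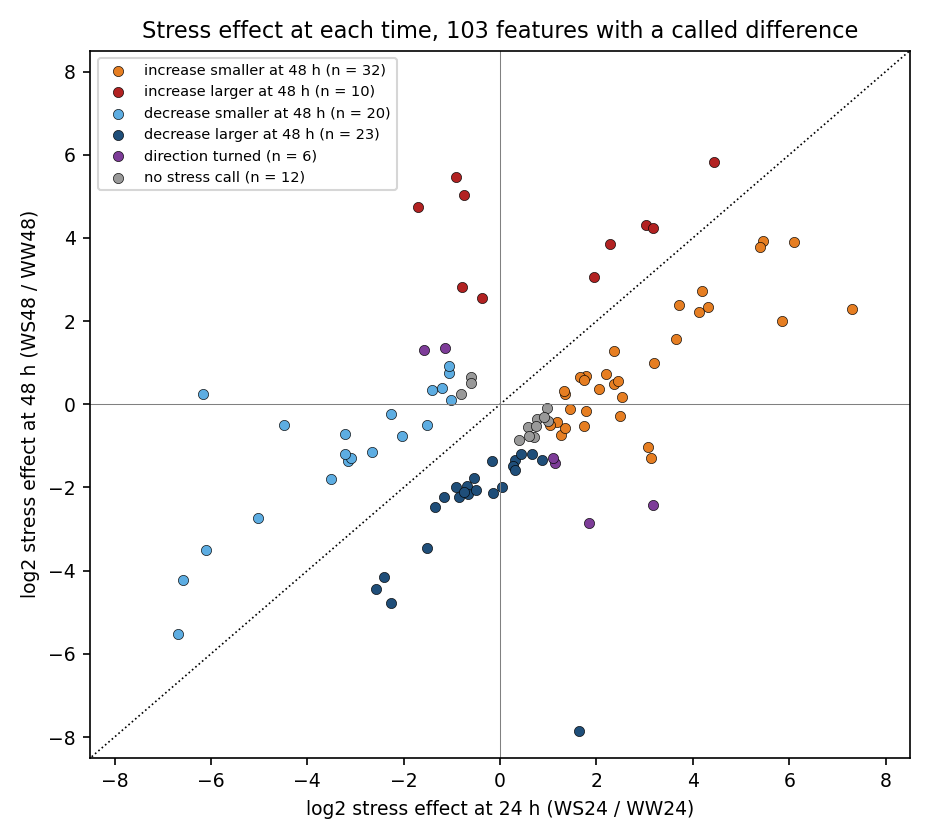
Fitted log2 stress effect at 24 h (WS24 over WW24, horizontal axis) and at 48 h (WS48 over WW48, vertical axis) of the 103 features with a called difference. Each point is 1 feature, coloured by how the effect changed, and the dotted line marks equal effects. The 52 effects classed by the calls as smaller at 48 h and the 33 classed as larger lie on both sides of 0, and some changed sign.

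A group pair was taken to have moved when its own change from 24 h to 48 h passed the same thresholds. By that rule the stressed roots alone moved for 29 of the 103 features, the well-watered roots alone for 36, both for 5 and neither for 33. Here "alone" means that the other pair missed the thresholds, which does not show that it was unchanged. The fitted time changes of the treatments had opposite signs in 84 of the 103. In all tested features, 243 (0.909%) changed between WS24 and WS48, 91 higher (0.34%) and 152 lower (0.568%), and 262 (0.98%) between WW24 and WW48, 211 higher (0.789%) and 51 lower (0.191%). Among the 29 features in which the stressed roots moved, 16 rose with time (median log2 change 2.23, against 0.21 in the well-watered roots) and 13 fell (−1.47 against 0.45). Among the 36 in which the well-watered roots moved, 24 rose (median 1.35, against −0.56 in the stressed roots) and 12 fell (−1.93 against 0.68). The direction of each follows from the sign of the called difference.

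The kind of change can be set beside the treatment that moved. Of the 20 stress decreases that were smaller at 48 h, 15 were features in which the stressed roots moved. Of the 32 stress increases that were smaller at 48 h, 17 were features in which the well-watered roots moved and 5 were features in which the stressed roots did. The 10 stress increases that were larger at 48 h comprised 9 in which the well-watered roots moved and Zm00001d005742, in which both did. The association itself was not tested.

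For the 33 features in which neither pair moved, the fitted changes of the stressed and well-watered roots had opposite signs in all cases. Where both changes are under log2 1 in size, a called difference requires opposite signs, so these follow largely from the thresholds. Of the 33, 28 were negative calls. An adjusted p of at most 0.05 with a change smaller than log2 1 was found for 12 of them in the stressed pair alone, for 8 in the well-watered pair alone and for 7 in both pairs. In the other 6 neither pair reached that p. The fitted change was larger in the stressed roots for 19 (3 positive and 16 negative calls), which is given as a description with no test.

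**Figure D3:**
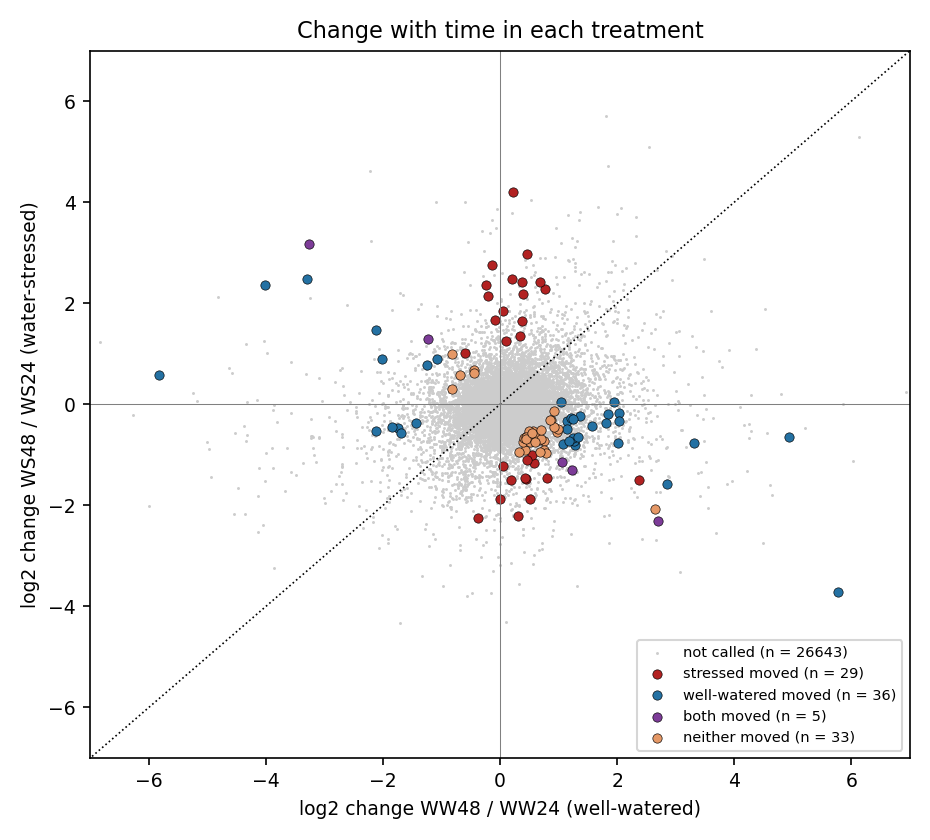
Fitted log2 change from 24 h to 48 h in well-watered roots (horizontal axis) and in water-stressed roots (vertical axis). Grey points are the 26643 features with no called difference, coloured points the 103 with one, by the treatment that moved, and the dotted line marks equal change in both. Features in which the stressed roots moved (29) spread vertically and those in which the well-watered roots moved (36) horizontally. Axes end at 7, so a few grey points lie outside.

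Separation of the libraries was seen for all 103 calls: in each, the 3 libraries at 24 h did not overlap in CPM with the 3 at 48 h in at least 1 treatment. That was the case for 36.9% of all features tested. In the stressed roots the times did not overlap for 34 positive and 54 negative calls, against 21.9% of all features. In the well-watered roots they did not overlap for 22 and 54, against 20.4%. Since the same libraries gave the calls, these counts are descriptions.

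Descriptions of what the encoded proteins do were taken from the annotation tables of the study and covered 1507 of the tested features. Of these, 9 had positive and 23 negative calls, so 32 of the 103 calls are described and 71 are not. Most of the described features, and 31 of the 32 described calls, come from a list of transcripts picked for their change at 48 h in these same libraries, so their counts and their direction are no independent evidence. The described features had a median difference of −0.20, with 976 of 1507 below 0, against 13489 of 26746 for all features. An unadjusted p under 0.05 was found for 417 of the 1507, against 3755 of 26746. DESeq2 called 22 of the 1507 positive and 85 negative.

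All 4 described features in which the stressed roots rose with time were decreased by stress at both times, and less so at 48 h. They come from the list picked for change at 48 h, so a stress effect then was part of their selection. Among all 35 positive calls, 9 were stress decreases at both times and 11 were decreases at 24 h with no call at 48 h. Zm00001d017508, a member of the lipid-transfer protein family of small secreted lipid-binding proteins, stood at 316, 356 and 372 CPM in WW24, at 4.02, 5.81 and 5.26 in WS24, at 293, 310 and 278 in WW48 and at 20.8, 21.4 and 35.9 in WS48. The WS libraries of 24 h and 48 h did not overlap, and all 6 lay far below the WW libraries. Its log2 difference was 2.61 (SE 0.26, edgeR adjusted p = 0.00202), of which 2.37 was the rise in the stressed roots. This call was kept in all 20 other settings.

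A pair of genes that the study's annotation describes as of the methylenetetrahydrofolate reductase family had the same form. That label names a family only, and which enzyme the genes encode was not checked. Zm00001d047124 was at 52.0, 55.9 and 58.8 CPM in WW24, at 0.840, 0.361 and 0.538 in WS24, at 53.0, 42.2 and 48.9 in WW48 and at 2.52, 3.15 and 2.07 in WS48, a log2 difference of 2.36 (SE 0.29, adjusted p = 0.00584) kept with each library left out. Zm00001d029853 was at 244, 276 and 287 CPM in WW24, at 2.54, 3.10 and 2.13 in WS24, at 335, 261 and 265 in WW48 and at 7.06, 6.40 and 5.17 in WS48, a log2 difference of 1.16 (SE 0.21, adjusted p = 0.0311) kept with 5 of the 12 libraries left out. In both genes the WS48 libraries were all above the WS24 libraries, while the WW libraries of 24 h and 48 h overlapped. The genes carry the same description, and how reads shared between them were counted was not checked.

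Zm00001d027557, a glutathione S-transferase, a detoxifying enzyme that conjugates glutathione, was at 170, 137 and 96.4 CPM in WW24, at 10.8, 11.1 and 13.5 in WS24, at 300, 171 and 177 in WW48 and at 60.4, 67.9 and 59.7 in WS48. The stress decrease was smaller at 48 h, with log2 effects of −3.52 at 24 h and −1.79 at 48 h. This gave a log2 difference of 1.73 (SE 0.31, adjusted p = 0.0317). Here the stressed roots rose by 2.41, and the 0.68 of the well-watered roots had an adjusted p of 0.12. Of the 11 tested members of the antioxidant and glutathione S-transferase list edgeR called this gene alone, DESeq2 called 2 higher and 1 lower, and the median of that list was 0.10.

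Among features without a description, Zm00001d006467 had the smallest adjusted p of those in which the stressed roots rose. It was at 25.9, 16.3 and 13.2 CPM in WW24, at 0.862, 0.573 and 1.05 in WS24, at 28.6, 19.7 and 16.2 in WW48 and at 16.5, 15.6 and 13.4 in WS48. The WS48 libraries lay within the range of the well-watered ones, whereas the WS24 libraries were all near 1 CPM or below. The resulting log2 difference was 3.98 (SE 0.40, adjusted p = 0.00202).

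**Figure D4:**
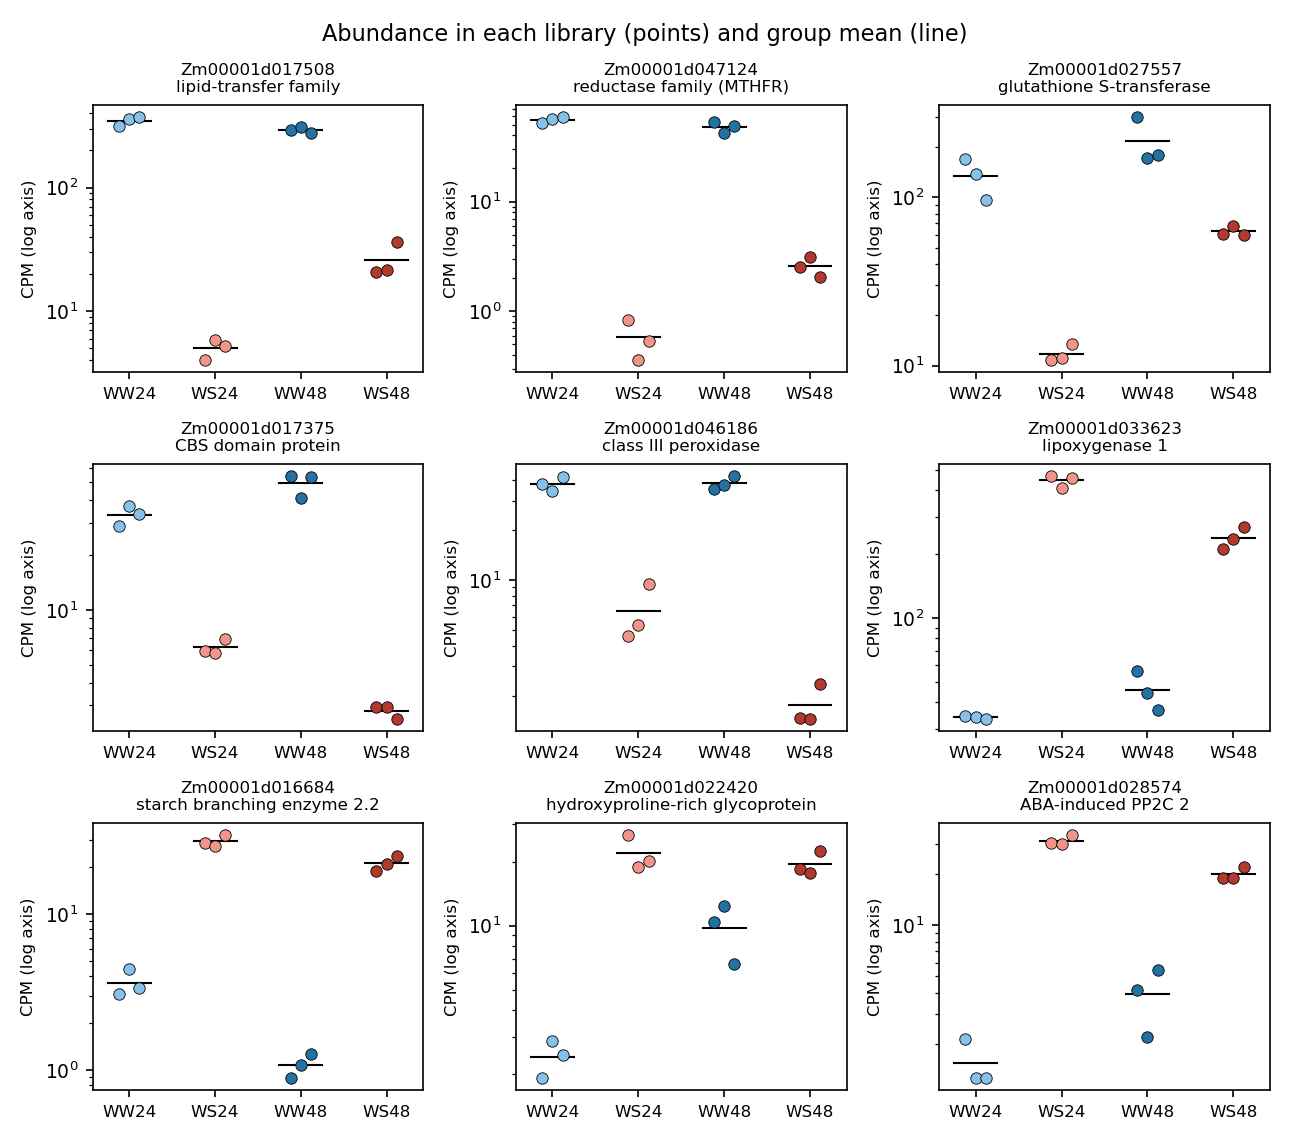
CPM (log axis) of 9 described genes in the 3 libraries of each group (points) with the group mean (line). In the top row the stressed groups rose from 24 h to 48 h, and in Zm00001d017508 from 4.02 to 5.81 CPM up to 20.8 to 35.9. In the CBS domain protein and the peroxidase they fell, and in the bottom row the well-watered groups moved.

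The 5 described features in which the stressed roots alone fell with time were stress decreases that were larger at 48 h or called only then. These too come from the list picked for change at 48 h. Zm00001d017375, a protein with CBS domains, which bind adenosine nucleotides in many proteins, was at 28.9, 37.2 and 33.5 CPM in WW24, at 5.99, 5.81 and 6.95 in WS24, at 54.2, 41.3 and 53.3 in WW48 and at 2.94, 2.96 and 2.52 in WS48. Neither pair of times overlapped, and the treatments moved apart. Its log2 difference was −1.74 (SE 0.19, adjusted p = 0.00278), and the call was kept with each library left out.

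Zm00001d046186, a class III peroxidase, secreted enzymes that can both cross-link and loosen the wall, was at 37.9, 34.3 and 41.9 CPM in WW24, at 4.56, 5.30 and 9.47 in WS24, at 35.2, 37.2 and 42.2 in WW48 and at 1.47, 1.45 and 2.34 in WS48. The well-watered libraries of both times shared a range while the stressed ones fell, with changes of 0.01 and −1.87 on the log2 scale. Its log2 difference was −1.87 (SE 0.34, adjusted p = 0.0315). Zm00001d026632, named for induction by aluminium, had a log2 difference of −1.92 (SE 0.34, adjusted p = 0.0311), and its stressed roots went from 24.6, 28.2 and 34.2 CPM to 11.03, 9.67 and 10.6. Zm00001d038325, a protein with the DUF1218 domain of unknown function, went from 1.66, 4.05 and 3.77 CPM to 1.03, 0.574 and 0.455 in the stressed roots, with a log2 difference of −2.52 (SE 0.45, adjusted p = 0.0311). In both genes the well-watered libraries of the times overlapped.

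The gene for 3-ketoacyl-CoA synthase 1, Zm00001d047931, also fell in the stressed roots. This enzyme family elongates very-long-chain fatty acids for waxes and suberin, the polymer that seals cell walls. Its CPM were 7.49, 6.99 and 6.12 in WW24, 5.97, 4.62 and 3.91 in WS24, 6.96, 9.70 and 11.8 in WW48 and 2.36, 2.64 and 1.76 in WS48. No stress effect was called at 24 h (log2 −0.50, adjusted p = 0.0747), and at 48 h it was −2.07. A log2 difference of −1.57 resulted (SE 0.31, adjusted p = 0.0436).

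Of the 18 tested members of the suberin, cutin and fatty acid elongation list, this was the single call, and DESeq2 called 3 lower. The list median was −0.86, with 14 of 18 below 0, against −0.20 for all described features. In the stressed roots 4 of the 18 fell with time, against 47 of 1507 described and 152 of 26746 tested features. In the well-watered roots none of the 18 did so by the same test, against 15 and 51. The treatments were not themselves compared by a test for the list. Beside Zm00001d047931 the 4 were Zm00001d048953 (3-ketoacyl-CoA synthase 2, log2 change −1.49), Zm00001d037328 (3-ketoacyl-CoA synthase 6, −1.75) and Zm00001d013979 (a cytochrome P450 of family 86, which hydroxylates fatty acids, −1.05), chosen after their values were seen. Their differences of −2.66, −1.70 and −0.35 did not pass the test (adjusted p = 0.1, 0.785 and 0.909). All 3 had stress increases at both times, and under 1 CPM in every well-watered library, so a fall there had little room to be called.

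In 4 described genes that stress had raised at 24 h the well-watered roots fell with time, and the stress increase was larger at 48 h. Zm00001d016684, starch branching enzyme 2.2, which introduces branch points into amylopectin, was at 3.09, 4.41 and 3.34 CPM in WW24 and at 0.887, 1.08 and 1.26 in WW48, while the stressed libraries were at 28.7, 27.3 and 32.1 in WS24 and at 19.0, 20.9 and 23.4 in WS48. The well-watered roots fell by 1.75 on the log2 scale (adjusted p = 0.0015), the −0.48 of the stressed roots had an adjusted p of 0.0969, and the log2 difference was 1.27 (SE 0.22, adjusted p = 0.028). Levels in the stressed roots were thus not higher at 48 h in any library, although the stress ratio was.

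The other genes of that form were enzymes of the wall and of metabolism. Zm00001d053225, beta-galactosidase 11, which removes galactose residues from wall polymers, went from 1.81, 3.29 and 3.09 CPM in WW24 to 0.733, 0.624 and 0.513 in WW48, with 13.2, 13.0 and 13.3 in WS24 and 10.1, 9.12 and 7.97 in WS48. Zm00001d044110, a pectin lyase-like protein of the superfamily that holds pectin-degrading enzymes, went from 1.66, 1.32 and 1.67 to 0.559, 0.648 and 0.513 CPM in the well-watered roots. Their log2 differences were 1.57 (SE 0.29, adjusted p = 0.0346) and 1.06 (SE 0.19, adjusted p = 0.0332), each kept with 4 of the 12 libraries left out. Zm00001d020008, of an aldolase-type family, had a log2 difference of 1.12 (SE 0.22, adjusted p = 0.0435) and lies outside the naming rule.

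Phosphate genes gave the largest described positive value. Zm00001d011734, phosphate starvation-induced gene 2, was at 6.23, 2.61 and 10.6 CPM in WW24, at 1.44, 1.55 and 8.68 in WS24, at 0.907, 0.288 and 0.745 in WW48 and at 32.3, 19.1 and 13.6 in WS48. The well-watered roots fell by 3.30 on the log2 scale (adjusted p = 0.0448) and the stressed roots had a change of 2.49 (adjusted p = 0.0768). At 24 h the WW and WS libraries overlapped (log2 effect −0.75, adjusted p = 0.377), and at 48 h all WS libraries were above the WW ones. The log2 difference was 5.79 (SE 1.01, adjusted p = 0.0311). WS24 replicate 3 was the high library of its group, and without it the difference was 7.14. The call was lost without any of 6 other libraries (WW24 replicate 3, WS24 replicates 1 and 2, WW48 replicate 2, and WS48 replicates 1 and 2).

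Of the 14 tested members of the phosphate and sulfate list this was the single call, and DESeq2 called 4 positive. An unadjusted p under 0.05 was found for 10 of the 14, against 417 of 1507 described features. The list median was −0.18, since its members went in both directions. The further DESeq2 calls were Zm00001d017597, a transporter with an SPX domain (log2 difference 1.92, edgeR adjusted p = 0.058), Zm00001d029460, SPX domain gene 3 (1.46, adjusted p = 0.12), and Zm00001d027700, phosphate transporter 1;7 (1.35, adjusted p = 0.12), all chosen after their values were seen. SPX domains sense phosphate status through inositol pyrophosphates. The sulfate transporters Zm00001d027749 and Zm00001d000204, likewise chosen later, had values of −0.80 and −0.55 (adjusted p = 0.0681 and 0.187).

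A feature labelled by similarity to purple acid phosphatases of Arabidopsis, enzymes that release phosphate from organic esters, had among the smallest adjusted p of all (0.00202). It was at 87.1, 97.4 and 101 CPM in WW24, at 63.1, 55.8 and 68.6 in WS24, at 58.8, 63.5 and 54.2 in WW48 and at 100.2, 90.8 and 87.5 in WS48. At 24 h all stressed libraries lay below the well-watered ones and at 48 h all lay above. The log2 effects of −0.61 and 0.66 were each below the size required for a call, and their difference was 1.26 (SE 0.13).

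Of the 23 described negative calls, 10 were stress increases that were smaller at 48 h. The other 13 were stress decreases that were larger at 48 h or called only then. In 4 of the 10 the well-watered roots alone rose. Zm00001d022420, a hydroxyproline-rich glycoprotein of the wall, was at 1.92, 2.86 and 2.45 CPM in WW24 and at 10.4, 12.4 and 6.59 in WW48, while the stressed libraries were at 26.8, 19.0 and 20.3 in WS24 and at 18.5, 17.8 and 22.5 in WS48. The stressed groups overlapped and the well-watered groups did not. For this gene the log2 difference was −2.20 (SE 0.31, adjusted p = 0.0118).

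Zm00001d028574, highly ABA-induced PP2C gene 2, belongs to the protein phosphatases 2C that switch off ABA signalling in Arabidopsis. Its CPM were 2.13, 1.27 and 1.26 in WW24, 30.2, 29.8 and 33.8 in WS24, 4.17, 2.19 and 5.40 in WW48 and 19.0, 19.0 and 22.0 in WS48. The well-watered roots rose by 1.33 (adjusted p = 0.0324), the −0.65 of the stressed roots had an adjusted p of 0.197, and the log2 difference was −1.98 (SE 0.36, adjusted p = 0.0335). The stress effect remained an increase at 48 h, 2.35 against 4.32. Among the 14 tested phosphatases of that list edgeR called 1 and DESeq2 called 2, all lower. A fitted value below 0 was found for 13, against 976 of 1507 described features, and the median was −0.51.

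The other members in which the well-watered roots rose were a lipid-transfer protein, a glycosyltransferase and a cryptochrome. Zm00001d013089, of the lipid-transfer family, went from 0.553, 0.380 and 0.779 CPM to 1.62, 1.39 and 1.19 in the well-watered roots and stood at 7.01, 8.55 and 6.24 in WS24 and 3.85, 3.89 and 4.78 in WS48, a log2 difference of −2.09 (SE 0.33, adjusted p = 0.0218). Zm00001d021219, UDP-glucosyl transferase 85A2, which attaches glucose to small molecules, had no stress call at 24 h (log2 0.67) and a decrease of −1.20 at 48 h, with a difference of −1.87 (SE 0.30, adjusted p = 0.0218). Zm00001d046935, cryptochrome 3, of a family that includes blue-light receptors, had a difference of −1.92 (SE 0.34, adjusted p = 0.0311) and lies outside the naming rule.

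In a late embryogenesis abundant (LEA) gene both treatments moved, in opposite directions. LEA proteins are hydrophilic proteins that accumulate in drying seeds and tissues. Zm00001d009382 was at 0.0426, 0.0506 and 0 CPM in WW24 (4 counts in all), at 5.73, 4.03 and 6.12 in WS24, at 0.154, 0.240 and 0.256 in WW48 and at 1.01, 1.13 and 1.04 in WS48. No library of either treatment overlapped between the times. The log2 difference was −5.02 (SE 0.61, adjusted p = 0.00584), kept in all 20 other settings, but its size rests on the few counts of WW24. The gene was below the abundance limit of the naming rule and was chosen after its values were seen.

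Of the 27 tested members of the LEA and dehydrin list edgeR called 1 and DESeq2 called 3, all lower, and 7 had an unadjusted p under 0.05. A fitted value below 0 was found for 17, and the median was −0.21. The dehydrins Zm00001d037894 and Zm00001d045321, chosen after their values were seen, fell in the stressed roots by 2.01 and 2.53, and their differences of 0.40 and 1.60 had adjusted p of 0.638 and 0.631. In Zm00001d037894 the well-watered roots also fell, by 2.41, and in Zm00001d045321 their change was −4.13 (adjusted p = 0.212).

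Zm00001d033623, lipoxygenase 1, of the enzymes that oxygenate unsaturated fatty acids in oxylipin synthesis, was at 34.5, 34.1 and 33.3 CPM in WW24, at 468, 410 and 459 in WS24, at 56.1, 44.5 and 36.8 in WW48 and at 211, 235 and 268 in WS48. Neither pair moved by the rule, since the changes were −0.91 (adjusted p = 0.0043) in the stressed and 0.43 (adjusted p = 0.107) in the well-watered roots, and the larger fitted change was in the stressed roots. The log2 difference was −1.34 (SE 0.18, adjusted p = 0.0105). Zm00001d053234, a transporter of the MATE efflux family, was at 62.4, 91.0 and 82.9 CPM in WS24 and at 57.4, 61.7 and 49.2 in WS48, with 4.49, 5.01 and 3.39 in WW24 and 10.9, 7.44 and 7.04 in WW48, and its larger fitted change was in the well-watered roots. Its log2 difference was −1.47 (SE 0.27, adjusted p = 0.0315).

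Smaller stress increases outside the naming rule were found for a DCD domain protein (Zm00001d011144, −1.09), a methyltransferase (Zm00001d038891, −1.51) and a further lipid-transfer protein (Zm00001d033595, −1.62). In none of these 3 did either pair move. Of the 29 tested lipid-transfer proteins edgeR thus called 1 positive and 2 negative, against 32 of 1507 described features and 0.385% of all features. DESeq2 called 1 positive and 3 negative, and the list median was −0.25. An unadjusted p under 0.05 was found for 13 of the 29, against 417 of the 1507.

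In a pair of wall genes the stress decrease was larger at 48 h with neither pair of groups moved. Zm00001d014617, xyloglucan endotransglucosylase/hydrolase 25, which cuts and rejoins xyloglucan chains, was at 52.9, 58.8 and 55.3 CPM in WW24, at 26.6, 22.6 and 25.5 in WS24, at 73.7, 77.0 and 70.1 in WW48 and at 13.9, 14.3 and 18.8 in WS48. Zm00001d032881, expansin 11, of the proteins that loosen walls at low pH, was at 24.6, 27.5 and 30.3 CPM in WW24, at 12.7, 13.3 and 17.7 in WS24, at 35.6, 39.1 and 41.9 in WW48 and at 10.1, 9.16 and 10.2 in WS48. In both genes no libraries overlapped between the times in either treatment: the well-watered values were higher at 48 h and the stressed values lower. The log2 differences were −1.07 (SE 0.15, adjusted p = 0.0118) and −1.07 (SE 0.18, adjusted p = 0.0235). Each was the single edgeR call of its list: of 7 tested xyloglucan endotransglucosylases (DESeq2 called 1 lower) 2 had a fitted value below 0 and the median was 0.01, and of 17 expansins (DESeq2 called 2 lower) 11 were below 0 and the median was −0.37.

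Zm00001d020401, cinnamyl alcohol dehydrogenase homolog 2, of the enzymes that make monolignols, was at 219, 320 and 309 CPM in WW24, at 134, 173 and 163 in WS24, at 590, 392 and 394 in WW48 and at 93.1, 83.2 and 117 in WS48, a log2 difference of −1.38 (SE 0.27, adjusted p = 0.0402). Its stress effect was not called at 24 h and was −2.23 at 48 h. The single calls of the calcium and WRKY lists were also larger decreases at 48 h with neither pair moved. Zm00001d005895, calmodulin-like 11, a calcium-binding protein, had a difference of −1.13 (SE 0.20, adjusted p = 0.0315), and Zm00001d039532, WRKY DNA-binding protein 72, a transcription factor, had −1.36 (SE 0.26, adjusted p = 0.0409). Each of these 3 was kept with at most 4 of the 12 libraries left out.

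Beta carbonic anhydrase 4 (Zm00001d011454), which interconverts CO2 and bicarbonate, and a calcium-dependent lipid-binding protein (Zm00001d019750) complete the described calls, with differences of −1.27 and −1.23. Both lie outside the naming rule. Their stress effects were below the size of a call at 24 h (−0.69 and −0.54) and were decreases of −1.96 and −1.77 at 48 h.

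The 6 features with stress effects called in opposite directions at the times had no description, while fitted effects of opposite sign, called or not, were found in 16 positive and 31 negative calls. Of the 6, Zm00001d022280 was at 7.06, 9.37 and 15.0 CPM in WW24, at 26.0, 22.3 and 20.7 in WS24, at 20.6, 29.9 and 23.6 in WW48 and at 8.81, 9.53 and 9.46 in WS48. At 24 h all stressed libraries were above the well-watered ones (log2 1.13, adjusted p = 0.00113) and at 48 h all were below (−1.41, adjusted p = 0.000261). The log2 difference was −2.55 (SE 0.31, adjusted p = 0.00584), kept with each library left out, and both treatments moved. Zm00001d022451, with a difference of −1.47 (SE 0.16, adjusted p = 0.00356), had effects of 0.69 and −0.77, below the size of a call at either time.

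Both treatments moved in 5 features, of which Zm00001d009382 and Zm00001d022280 have been given. The others, chosen after their values were seen, were Zm00001d005742 (log2 difference 6.45, SE 1.04), Zm00001d044541 (2.51, SE 0.40) and Zm00001d022283 (−2.19, SE 0.27). In the first of these, WW48 held 21 counts in all. The fold of 3 further calls with at most 3 counts in a group (Zm00001d029388, Zm00001d033139 and Zm00001d014840) depends on the prior count and is not given.

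Zm00001d029769, with no description and likewise chosen after its values were seen, had its change in the well-watered roots. Its CPM were 31.1, 17.4 and 50.5 in WW24, 0.708, 0.361 and 0.294 in WS24, 0.579, 0.384 and 0.769 in WW48 and 0.803, 0.510 and 0.745 in WS48. The WW24 libraries alone were high, and the other 9 libraries were all under 1 CPM. The stress decrease of −6.17 at 24 h was followed by 0.24 at 48 h (adjusted p = 0.725), a log2 difference of 6.41 (SE 0.65, adjusted p = 0.00202). Together with Zm00001d006467, Zm00001d017508 and Zm00001d009382 it was kept in all 20 other settings.

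**Figure D5:**
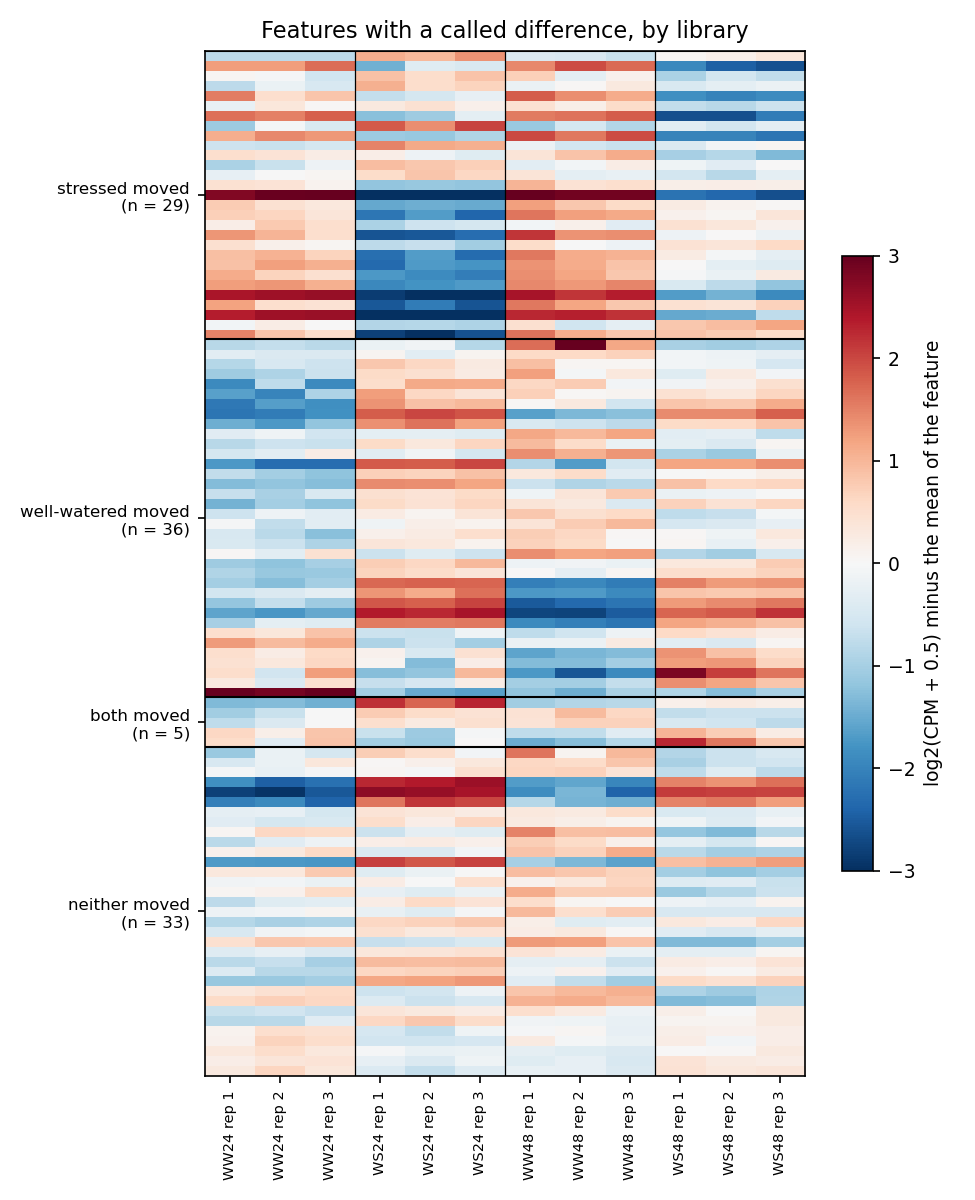
Abundance of the 103 features with a called difference (rows) in the 12 libraries (columns), as log2(CPM + 0.5) minus the mean of the feature, limited to −3 to 3. Rows are grouped by the treatment that moved (29, 36, 5 and 33 features) and ordered by the difference within each group, from the most negative at the top. The 3 libraries of a group resemble each other, with WS24 replicate 3 nearer to 0 in some rows.

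Of 44 functional lists 28 had no edgeR call, with 527 distinct members tested, among which 146 had an unadjusted p under 0.05 and DESeq2 called 28. Among all 1507 described features 417 had such a p, and DESeq2 called 22 positive and 85 negative. In the ABA synthesis and transport list 0 of 5 members were called by edgeR (2 at an unadjusted p under 0.05, 0 by DESeq2), with a median difference of −0.14. Heat shock proteins and chaperones gave 0 of 30 (5 and 1), receptor-like and other kinases 0 of 116 (34 and 4), sucrose metabolism 0 of 12 (3 and 1), and defence proteins 0 of 37 (8 and 2). The aquaporin list gave 0 of 5 (4 and 1), with all 5 fitted values below 0 and a median of −0.64. A missed call does not show equal responses, given a 95% interval of 0.45 on the log2 scale to either side at the median SE.

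Marker lists of other cell types showed no call among 17 features tested, of which 7 had an unadjusted p under 0.05 and 0 were called by DESeq2. The lateral root list held 5 features, matched by words for lateral root primordia, lateral organ boundaries (LOB) domains and WUSCHEL related homeobox 11. Their summed level was 19.2 to 23.8 CPM in WS24 and 11.7 to 14.3 in WS48, so lower at 48 h in the stressed roots. In the well-watered roots it was 4.43 to 6.89 in WW24 and 3.79 to 6.89 in WW48. Root hair and epidermis features (4 detected) summed to 28.8 to 35.3 CPM in WS24 and 33.8 to 38.3 in WS48, against 33.3 to 39.1 in WW24 and 42.8 to 47.6 in WW48. Vascular and secondary wall features (8 detected) summed to 66.3 to 76.3 and 67.3 to 74.8 CPM in the stressed roots and to 89.3 to 99.6 and 100.1 to 130 in the well-watered roots. These sums mix members of opposite direction and do not measure a cell type. At 24 h stress raised 1 and lowered 3 of the root hair features, 3 and 4 of the vascular and 4 and 1 of the lateral root features, by call. In the vascular sum Zm00001d018452, phloem protein 2-B1, alone had group means of 40.0 to 45.3 CPM. The part of these markers in the called differences was not tested. No described feature matched the root cap pattern, so the presence of cap tissue was not checked.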

How the data were processed

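RNA was sequenced from 12 root tip samples, 3 in each of 4 groups taken from the sample titles. The authors deposited raw counts per feature, made from strand-specific paired-end reads with HISAT2 and HTSeq (versions 1.0 and 0.6.1 in the submitters' processing notes) on B73 RefGen_v4, to which the methods add an FR697 assembly. Mismatches between FR697 and B73 could lower alignment, and how HTSeq treated strand is not stated in these sources, so overlapping and antisense genes are uncertain. Normalized values deposited by the authors beside the counts, rounded to whole numbers and treated as a score, were not tested. Counter rows that name no gene (such as reads not aligned, 12.7 to 23.1% of all counts with these rows included) stayed out of library sizes.

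The counts entered edgeR 4.0.16 (R 4.3.3): filterByExpr (minimum count 10), TMM factors (0.926 to 1.06), 1 fit of the 4 group means over all 12 libraries, quasi-likelihood F-tests and Benjamini-Hochberg adjustment over 26746 features. The biological coefficient of variation was 16.0%. Thresholds were an adjusted p of 0.05 and a log2 value of 1. SE is the log2 value divided by the root of F, and CPM are TMM-adjusted. On simulated counts, 38, 96, 98 and 100% of differences of log2 1, 1.5, 2 and 3 were recovered (50 each), with 7 false calls among 26442 genes. Differences were placed only in genes with at least 50 expected counts per library in every group, so recovery at lower counts was not measured. The simulated libraries were independent draws at the fitted dispersion, with no library set apart. Replicate libraries all differed by more than sampling noise (chi-square per gene 5.38 to 33.7, highest between WW48 replicates 1 and 3). Totals per library, 40005384 to 54863708 counts, set the counting precision, and p-values measure the spread between these samples.

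Same-numbered libraries did not deviate together (correlations −0.50 to 0.11 over 18 pairs), so no block was used in the main fit. Some differently numbered libraries did, such as WW48 replicate 3 with WS48 replicate 2 (0.474) and WW48 replicate 1 with WS48 replicate 3 (0.42). A grouping other than by number was not tested. Alternatives were other scaling (DESeq2 size factors or none), other filters (none, or above 3 CPM in a library), DESeq2 1.42.0, a replicate block, glmTreat, adjusted p alone and each library left out.

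Genes named were, among described calls with a mean log2 CPM of at least 1, the 4 with the smallest adjusted p per direction where the stressed, the well-watered or both groups moved, 2 where neither did, up to 2 per list, and 2 features without description per direction. This gave 28 features, and others are marked as chosen later. Lists were word patterns on the study's descriptions. The contrast, members and lists were chosen with earlier results of these data known. No sequence is printed, as no sequence table was used here.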

Additional observations from a re-analysis of the deposited data

Results flagged for a closer look

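The stress effect differed between 24 h and 48 h, by a test of the difference itself (the treatment by time contrast in edgeR's quasi-likelihood test), for 35 features in the positive and 68 in the negative direction. Leaving out 1 library moved these counts to between 8 (without WS48 replicate 1) and 56 (without WW24 replicate 1) in the positive and between 5 (without WS48 replicate 1) and 170 (without WW48 replicate 3) in the negative direction. Among the features named, Zm00001d022280 had called stress effects in opposite directions, an increase at 24 h and a decrease at 48 h, and its log2 difference was −2.55 (SE 0.31, adjusted p = 0.00584), with all 3 stressed libraries above the well-watered ones at 24 h and all 3 below at 48 h.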

How the results depend on the processing

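None of the 28 named differences changed sign under the 20 settings. With DESeq2 size factors, no scaling factors or a filter of 3 CPM in a library, every count of calls stayed within 1.5 times, and the median of all features shifted by less than 0.1. Without the filter on low counts there were 53 positive and 133 negative calls, with the stressed roots moved in 45, the well-watered in 68 and neither in 67. The DESeq2 Wald test called 93 and 333 (stressed 105, well-watered 140, both 11, neither 170), which raised the share of negative calls from 66.0 to 78.2%. Its 1588 missing adjusted p were kept as missing. Under adjusted p alone there were 64 and 103 (stressed 62, well-watered 70, both 17, neither 18). The glmTreat test against a log2 change of 1 left 3 positive and 1 negative call (stressed 2, well-watered 1, both 0, neither 1). With the replicate block there were 31 positive and 40 negative calls (stressed 27, well-watered 22, both 3, neither 19), 60 of the 103 among them and 56.3% negative. The labels share only a replicate number: 1 of 18 same-numbered pairs correlated above 0.1, and 1 of the 12 libraries correlated best with its own number.

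Leaving out 1 library gave 8 to 56 positive and 5 to 170 negative calls, the stressed roots moved in 5 to 42, the well-watered in 3 to 95, both in 0 to 7 and neither in 3 to 93. Of the 28 named features 7 kept their call without WS48 replicate 1 and 27 without WW24 replicate 1. The cause of these shifts was not tested. At low abundance the counts limit precision: 14 calls had a mean log2 CPM under 1.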
